A study of Mus musculus with 8 samples.

Results

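The cytosolic chaperones examined here were 10 genes of the 55291 in the deposited mouse count table, chosen by symbol: the 8 subunits of the TRiC chaperonin (Tcp1, Cct2, Cct3, Cct4, Cct5, Cct6a, Cct7 and Cct8), Hspa8 and Hsp90ab1. All 10 were found and all 10 had enough counts to be tested. RNA sequencing was done on 8 libraries of leukaemic granulocyte-macrophage progenitors (L-GMP), labelled as leukaemia stem cells and sorted from bone marrow as Lin-, Sca-1-, c-Kit+, CD16/32+ and CD34+. The 4 KO libraries (Dekfl/fl,MX1-Cre) came from mice with floxed Dek alleles plus Mx1-Cre, an interferon-inducible Cre widely used for deletion in the blood system, and the 4 FL libraries (Dekfl/fl) from mice with the floxed alleles alone. All mice of both groups carried a myeloid leukaemia (AML) made with the MLL-AF9 fusion oncogene. Mice of the KO group alone carried Cre, so an effect of the transgene and of Dek loss cannot be told apart. Age is not labelled, nor is it stated if each library was from its own mouse, so p-values measure the spread between libraries, which may be technical.

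TRiC, also called CCT, is a barrel of stacked rings, each built from all 8 subunits, that encloses newly made proteins and folds them in cycles of ATP hydrolysis. Actin and tubulin are its best known clients, and prefoldin delivers them to it. Hspa8 encodes HSC70, the constitutive cytosolic HSP70 that binds nascent chains, and Hsp90ab1 encodes the constitutive HSP90 beta, which matures kinases and hormone receptors. Dividing cells rely on all of these machines for newly made protein.

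Library totals were 33941940 to 49736592 counts in KO and 44086524 to 58660705 counts in FL, and the number of genes with a count was 30606 to 37801 in KO and 24125 to 26053 in FL. Dek itself had 21.2, 21.4, 31.0 and 16.7 CPM (counts per 1000000 counts, scaled by TMM factors, which equalise the typical gene between libraries) in KO replicates 1 to 4, against 129, 137, 163 and 178 CPM in FL replicates 1 to 4, lower in KO as labelled. The 9 genes listed as marks of L-GMP and MLL-AF9 cells summed to 20976 to 24588 CPM in KO and 12807 to 27476 CPM in FL (2 called higher and 2 lower). Eosinophil markers summed to 274 to 1292 CPM in KO, highest in replicates 2 and 3, and to 99.1 to 207 CPM in FL, and of the 7 tested 6 were called higher and 1 lower. Late neutrophil markers summed to 196 to 2513 CPM in KO, highest in replicate 3, and to 164 to 791 CPM in FL (of 8, 1 higher and 1 lower). Mast cell and basophil markers summed to 65.4 to 106 CPM in KO and 148 to 308 CPM in FL (of 4 tested, 1 higher and 2 lower). Erythroid markers summed to at most 26.6 CPM in KO and 3.83 CPM in FL (of 3 tested, 1 higher). B and T cell markers stayed under 4 CPM. The 1 B cell gene tested was not called, and the 1 T cell gene tested was called higher. T cell sums were 2.07 to 3.57 CPM in KO and 0.488 to 1.19 CPM in FL. Endothelial and stromal markers summed to 189 to 338 CPM in KO and 183 to 359 CPM in FL (of 2 tested, 1 higher). The part of these other cells in the results below was not tested. In bulk RNA, fewer cells of a type and less RNA per cell cannot be told apart.

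All 10 chaperone transcripts were lower in KO than in FL, by 1.52-fold for Cct4 to 2.44-fold for Hsp90ab1, and none had a KO library above an FL library. As a raw share of all counts, with no further scaling, the 10 genes took 0.675% to 0.832% of each KO library and 1.02% to 1.14% of each FL library. Hspa8 and Hsp90ab1 made up most of this share in every library. Taken singly on that scale, Cct3, Cct4, Cct6a and Cct7 overlapped between the groups. A single entry, CT010467.1, took 9.39% of FL replicate 4 and 4.41% of FL replicate 2, against 2.43% to 3.39% of each other library. It is within the totals behind this share and the total-count results below, and its part in them was not tested. In the quasi-likelihood test of edgeR, Benjamini-Hochberg adjusted over all 17418 genes tested, 10 of 10 passed an adjusted p of 0.05 as lower in KO, where 14.9% of all genes did and 13% passed as higher. DESeq2 and limma-voom also called 10 lower, against a background of 9.47% and 17.2% of genes. KO and FL libraries were fully separated, with KO lower, for all 10 members and for 15.8% of all genes (for 6 of the 10 and 4.67% of genes when library totals alone set the scale). Adjusted p-values below are from the edgeR test unless another tool is named.

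Above about 100 CPM, fold changes went down as abundance went up. Of the 499 genes whose mean CPM lay within the range of the 10 members (290.4 to 3254 CPM), 81.4% were called lower in KO, with a median log2 fold change of -0.85. The members' median was -0.92, and that of all genes tested was 0.05. By class of mean CPM, from 10 CPM upwards, the median log2 fold change was 0.01 for genes of 10 to 100 CPM, -0.32 for 100 to 300 CPM, -0.76 for 300 to 1000 CPM and -1.24 for 1000 to 4000 CPM. Hsp90ab1 sat near the middle of the last class, with 43.9% of its 114 genes lower still, and Hspa8 likewise at 50%. Among the 7 subunits in the class of 300 to 1000 CPM that share ran between 22.1% for Cct8 and 66.0% for Cct4. Cct2, at 290.4 CPM, lay at the top edge of the class of 100 to 300 CPM, with 10.8% of its genes lower still. Its log2 fold change of -0.77 was near the median of the next class up (-0.76). The 10.8% is therefore not a rank among genes of like abundance. For each other member 22.1% to 66.0% of the genes of its class were lower still. The part of abundance in the members' values was not tested.

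**Figure D1:**
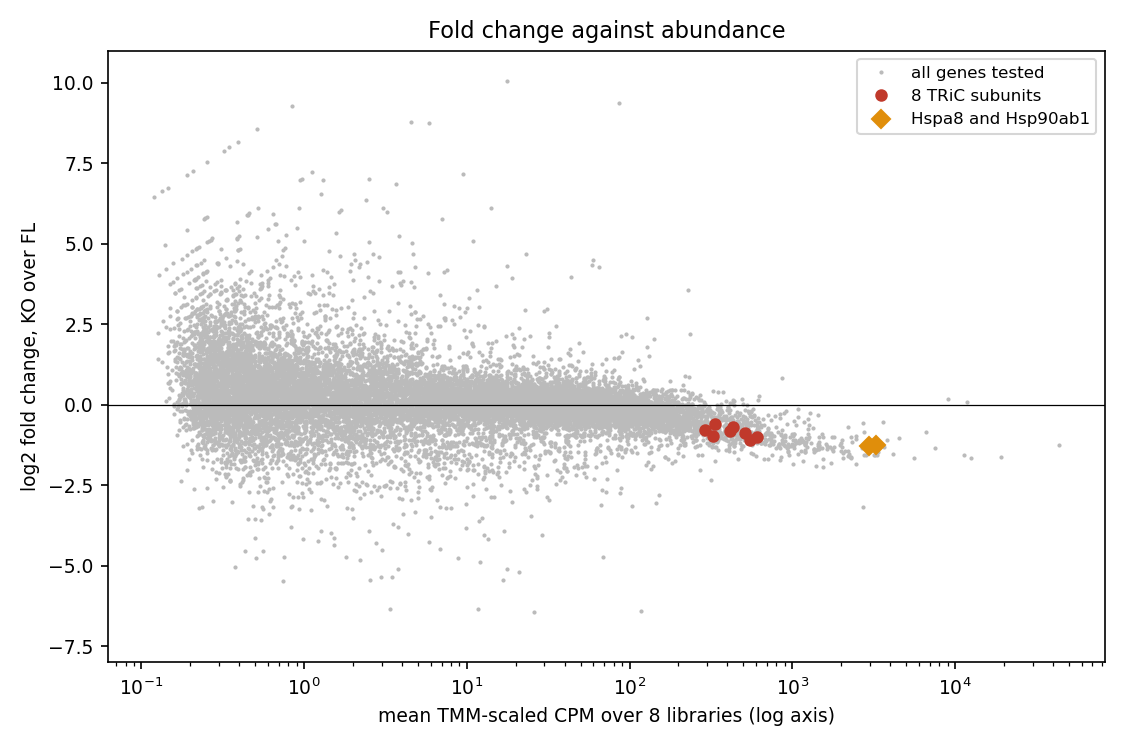
Each point is 1 of the 17418 genes tested, with its mean TMM-scaled CPM over the 8 libraries on a log x axis and its log2 fold change (KO over FL) on the y axis; red circles are the 8 TRiC subunits and orange diamonds Hspa8 and Hsp90ab1. The cloud bends below 0 above about 100 CPM, and the 10 chaperone genes lie within the bend, between -0.60 and -1.29.

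Cct8 (chromosome 16, 87483326 to 87495873, mm10), which encodes the theta subunit, fell most among the subunits. It had 381, 341, 372 and 307 CPM in KO replicates 1 to 4, against 739, 648, 832 and 775 CPM in FL replicates 1 to 4. The FL libraries all lay above the highest KO library by more than the range of the KO group. This was a log2 fold change of -1.10 with an SE of 0.12 (adjusted p = 1.7e-04), 2.14-fold lower. Cct5 (chromosome 15, 31590800 to 31601804), the epsilon subunit and the most abundant of the 8 per kilobase, had 440.1, 403, 414 and 367 CPM in KO and 814, 699.6, 937 and 814 CPM in FL. That amounted to -1.01 on the log2 scale with an SE of 0.12 (adjusted p = 2.5e-04). Tcp1 (chromosome 17, 12915701 to 12925067), the alpha subunit that gave the complex its name, had 239, 219, 239.6 and 177 CPM in KO and 378, 382, 450.3 and 513 CPM in FL (log2 fold change -0.98, SE 0.14, adjusted p = 7.1e-04). For each of these 3 subunits KO replicate 4 was the lowest library of all.

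Promoter sequence is shown for the subunit with the largest fall, Cct8, and for the 2 subunits with a match to a heat shock motif, Cct5 and Cct2. Each is the 250 bases before a RefSeq gene start (GRCm38.p6), printed 5′ to 3′ on the gene's strand in lower case, with motif matches in capitals.
Cct8, chr16:87495870-87496119, minus strand: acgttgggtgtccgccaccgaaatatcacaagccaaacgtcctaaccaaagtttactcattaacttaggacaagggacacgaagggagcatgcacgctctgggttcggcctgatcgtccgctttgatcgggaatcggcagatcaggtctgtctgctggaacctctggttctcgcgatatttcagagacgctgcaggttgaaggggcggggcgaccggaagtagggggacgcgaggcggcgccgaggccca
Cct5, chr15:31601847-31602096, minus strand: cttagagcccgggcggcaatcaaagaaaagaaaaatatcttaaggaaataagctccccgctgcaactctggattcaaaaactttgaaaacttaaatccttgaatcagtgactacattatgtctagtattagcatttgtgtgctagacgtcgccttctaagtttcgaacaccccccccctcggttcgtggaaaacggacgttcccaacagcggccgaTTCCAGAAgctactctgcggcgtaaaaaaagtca
Cct2, chr10:117063376-117063625, minus strand: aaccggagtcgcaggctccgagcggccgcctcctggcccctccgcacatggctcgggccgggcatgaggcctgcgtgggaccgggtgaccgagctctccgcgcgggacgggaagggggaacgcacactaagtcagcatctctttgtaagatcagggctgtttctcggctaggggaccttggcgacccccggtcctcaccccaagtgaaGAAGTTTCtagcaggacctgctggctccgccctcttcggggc
The motifs searched were GAANNTTC and TTCNNGAA, paired units of the element bound by heat shock factors, and the E-box CACGTG; each reads the same on both strands, and no 2 matches overlapped. RefSeq promoters were matched for 7 of the 10 genes (9 starts), without Cct4, Hspa8 and Hsp90ab1. TTCNNGAA was found 34 bases before 1 of the starts of Cct5, GAANNTTC was found 42 bases before 1 of the starts of Cct2, and CACGTG was in none of the 9 windows. That Cct2 window lies inside the Cct2 gene as placed by GENCODE (117051001 to 117063814), before an internal start. The window before the Cct2 start further upstream (117063853 to 117064102) held no match. Over all 32851 RefSeq promoters of that length, 7.17% held TTCNNGAA, 6.69% held GAANNTTC and 6.02% held CACGTG. A match describes the letters of the window, not a bound site.

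The middle of the order was held by Cct7, Cct6a and Cct2. Cct7 (chromosome 6, 85451514 to 85468475), the eta subunit, had 380.0, 359.7, 400.4 and 323 CPM in KO and 667, 658, 669 and 666 CPM in FL, the tightest FL group of the 10 genes. In log2 units Cct7 fell by 0.86, with an SE of 0.11 (adjusted p = 2.8e-04). Cct6a (chromosome 5, 129786998 to 129846371), the zeta subunit, had 350.0, 298, 299.97 and 257 CPM in KO and 532, 441, 613 and 534 CPM in FL (log2 fold change -0.82, SE 0.14, adjusted p = 0.0015). Its testis-type paralog Cct6b was barely present, at 0.723 ± 0.253 CPM in KO and 0.624 ± 0.272 CPM in FL (SD, n = 4 each), and passed in neither direction (log2 fold change 0.21, SE 0.41, edgeR adjusted p = 0.74). Cct2 (chromosome 10, 117051001 to 117063814), the beta subunit, had 228, 206, 211 and 215 CPM in KO and 310.4, 348, 352 and 453 CPM in FL (log2 fold change -0.77, SE 0.13, adjusted p = 0.0016). FL replicate 4 was the highest library for Cct2 and Tcp1, but not for Cct5, Cct6a or Cct8, where FL replicate 3 was.

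Cct3 and Cct4 changed least. Cct3 (chromosome 3, 88297116 to 88321767), the gamma subunit, had 387, 333, 331 and 282 CPM in KO and 545, 449, 592 and 546 CPM in FL (log2 fold change -0.68, SE 0.13, adjusted p = 0.0035). Cct4 (chromosome 11, 22990519 to 23003780), the delta subunit, had 281, 269.9, 269 and 246 CPM in KO and 395, 361, 419 and 442 CPM in FL (log2 fold change -0.60, SE 0.11, adjusted p = 0.0022). The groups still did not overlap for either gene. Without KO replicates 2 and 3, the libraries with the most eosinophil transcript, the Cct3 log2 fold change was -0.67 with an adjusted p of 0.053, and the other 9 members passed (-0.61 to -1.24), where 7.31% of all genes were called lower.

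Hspa8 and Hsp90ab1, each several times more abundant than any subunit, fell further than all 8 of them. Hspa8 (chromosome 9, 40800984 to 40810087) had 2240.2, 1837, 2044 and 1623 CPM in KO and 4746, 3729.7, 4397 and 5417 CPM in FL. Hspa8 was thus 2.36-fold lower, a log2 fold change of -1.24 with an SE of 0.16 (adjusted p = 3.3e-04). Hsp90ab1 (chromosome 17, 45567775 to 45573271) had 1994, 1625, 1657 and 1639 CPM in KO and 3749.7, 3513, 4368 and 5272 CPM in FL (log2 fold change -1.29, SE 0.16, adjusted p = 2.5e-04). In KO, 3 of the 4 libraries lay close together and replicate 1 stood above them, still far below every FL library. Counts of Hspa8 and Hsp90ab1 moved in step: their ratio was 1.12 ± 0.0997 in KO and 1.09 ± 0.119 in FL (SD, n = 4 each), with overlapping ranges. Both genes have processed pseudogenes, and the sources used here do not give how reads shared with such copies were assigned.

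**Figure D2:**
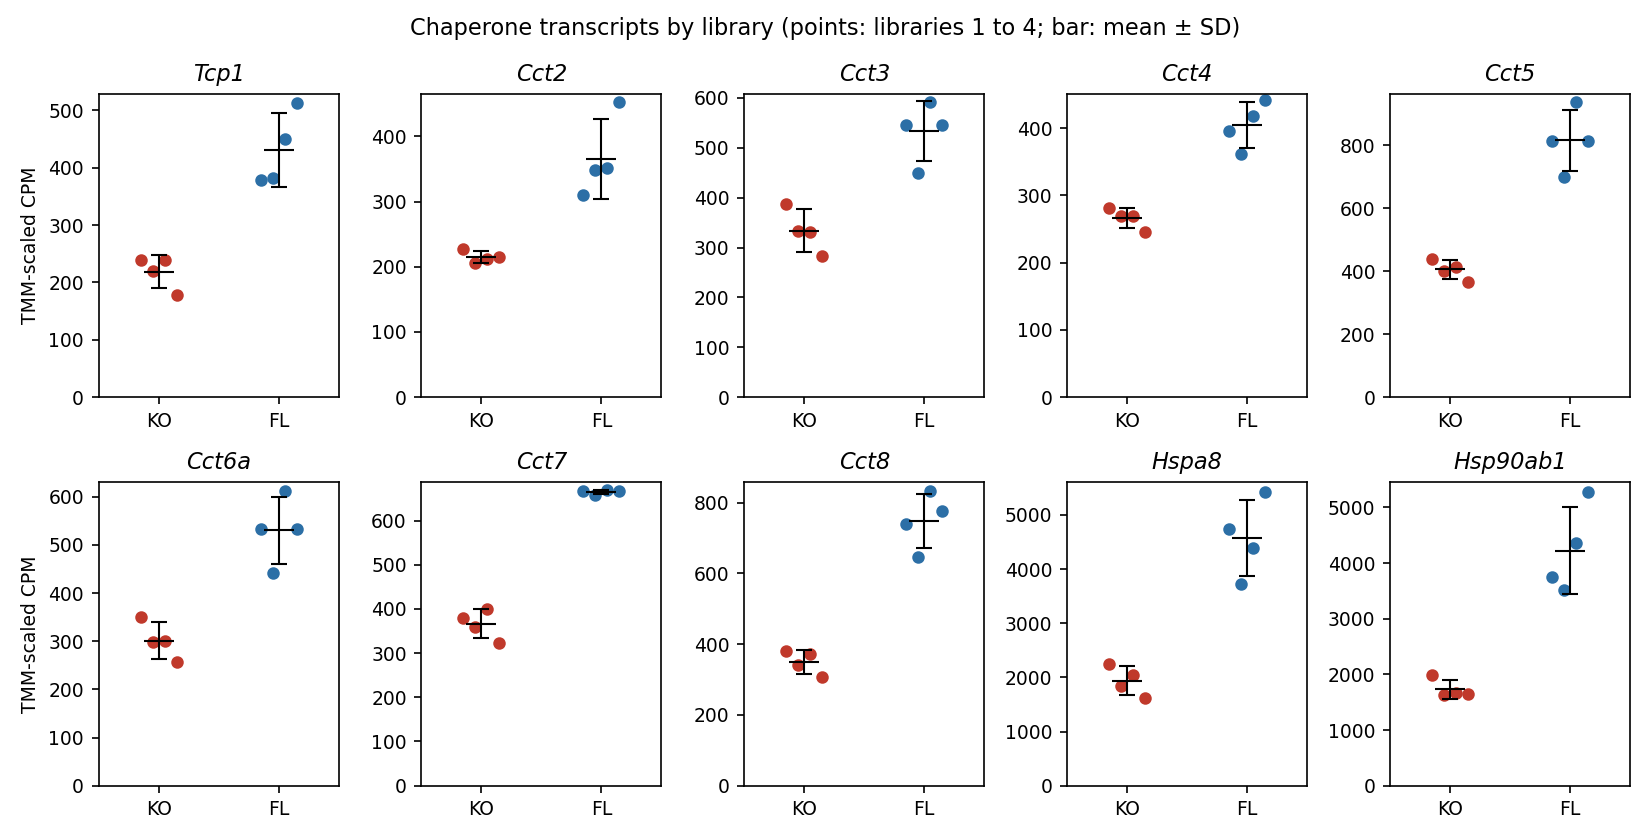
Panels give TMM-scaled CPM (y axis, from 0) of the 10 genes in the KO libraries (red) and FL libraries (blue), replicates 1 to 4 from left to right, with the mean and SD of 4 libraries as the bar. No panel has a KO library as high as its lowest FL library, and Cct4 and Cct3 have the smallest fold changes in the edgeR fit (1.52-fold and 1.60-fold lower).

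Of the inducible relatives, Hsp90aa1 was called lower. Hspa1a, counted far below the members, had too wide an SE to tell if it followed them. Hsp90aa1, the stress-inducible HSP90 alpha, fell to 735 ± 102 CPM in KO against 1635 ± 319 CPM in FL (SD, n = 4 each; log2 fold change -1.15, SE 0.16, edgeR adjusted p = 5.8e-04). Counts of Hsp90ab1 over Hsp90aa1 were 2.37 ± 0.268 in KO and 2.59 ± 0.0542 in FL, with overlapping ranges. Hspa1a, a heat-induced HSP70, varied as much within groups as between them: 11.1, 5.02, 7.67 and 1.26 CPM in KO against 10.6, 0.996, 3.60 and 3.62 CPM in FL (log2 fold change 0.41, SE 0.67, edgeR adjusted p = 0.69). Its near-identical copy Hspa1b had 43 counts over the 4 KO libraries and 23 over the 4 FL libraries, too few to be tested, and the pair can share reads.

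Scaling set how deep the fall looked. TMM factors were 1.20 to 1.26 in KO and 0.682 to 0.912 in FL, and dropping them for total counts moved the median log2 fold change of all genes by 0.59, to 0.64. On total counts 5 of the 10 members passed as lower (Tcp1, Cct5, Cct8, Hspa8 and Hsp90ab1), where 5.09% of all genes did and 41.3% of the 499 genes in the members' abundance range. Hspa8 and Hsp90ab1 were at -0.64 (SE 0.12, edgeR adjusted p = 9.4e-04) and -0.68 (SE 0.11, edgeR adjusted p = 3.2e-04) on that scale. Cct4 was at -0.0014 (SE 0.12), with 327 ± 15.3 CPM in KO and 328 ± 20.1 CPM in FL. Cct2, Cct3, Cct6a and Cct7 had -0.16, -0.08, -0.22 and -0.27 and did not pass. Relative to the median gene the members lay at -0.65 to -1.34 with TMM and at -0.64 to -1.31 with total counts. These ranges are close by construction, since a change of scaling moves every gene by nearly the same step. With TMM the median was -0.92 for the members and -0.85 for the 499 genes in their abundance range. On total counts it was -0.32 and -0.26. No member was higher in KO under either scaling.

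**Figure D3:**
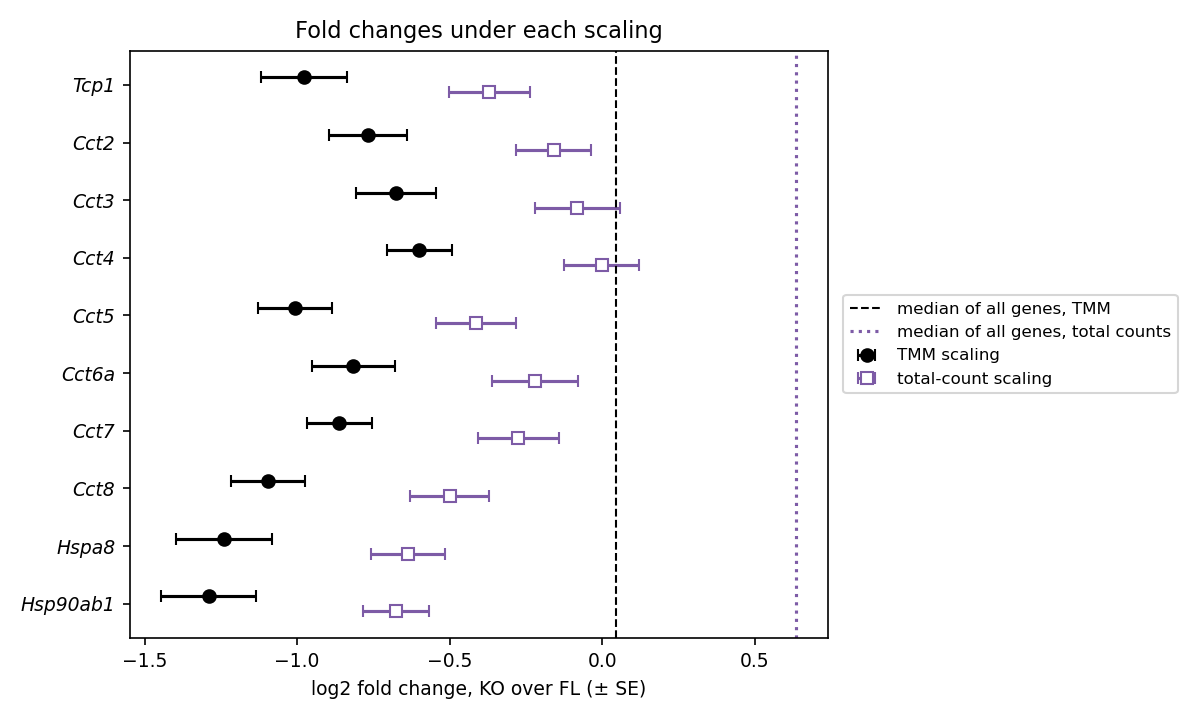
Points are log2 fold changes (KO over FL, x axis) with SE bars for the 10 genes under TMM scaling (filled circles) and total-count scaling (open squares); vertical lines mark the median of all genes tested, 0.05 with TMM and 0.64 with total counts. Every gene moves right by about the same step, which takes Cct4 to 0 and leaves Hsp90ab1 at -0.68.

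A second measure that moved with the groups was the number of genes detected, higher in every KO library. With it as a covariate 0 of 10 members passed in edgeR, 8 at an unadjusted p under 0.05, where 0.563% of all genes passed as lower. Fold changes kept their direction, and that of Tcp1 was then -1.20 and that of Cct4 -0.62 on the log2 scale. Detection follows the groups closely, so its part and that of genotype cannot be told apart.

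Comparisons within the set do not depend on library scaling. Counts of the 8 subunits summed to 0.635, 0.702, 0.685 and 0.667 times those of Hspa8 plus Hsp90ab1 in KO replicates 1 to 4, against 0.516, 0.550, 0.555 and 0.444 in FL replicates 1 to 4. The chaperonin share of this pool was therefore higher in every KO library than in any FL library. Within the complex, Cct8 made up 17.7 ± 0.411% of the summed level per exonic kilobase in KO and 20.3 ± 0.472% in FL, and Cct5 22.9 ± 0.204% in KO and 24.8 ± 1.27% in FL (SD, n = 4 each). Cct4 took 9.92 ± 0.323% in KO and 8.09 ± 0.278% in FL, and Cct3 8.15 ± 0.428% in KO and 7.02 ± 0.325% in FL. The groups did not overlap for these 4 subunits and overlapped for Tcp1, Cct2, Cct6a and Cct7. Cct8 and Cct5, with lower shares in KO, had the most CPM of the 8 subunits, and Hspa8 and Hsp90ab1 had more than all of them, the same way as the slope of fold change on abundance. Tcp1 went against that slope, with the second lowest mean CPM of the 8 and a share of 6.77 ± 0.453% in KO and 7.18 ± 0.670% in FL, within the spread of the libraries. The part of abundance in the shares and in the ratio was not tested, and the shares and ratios are given with no test.

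**Figure D4:**
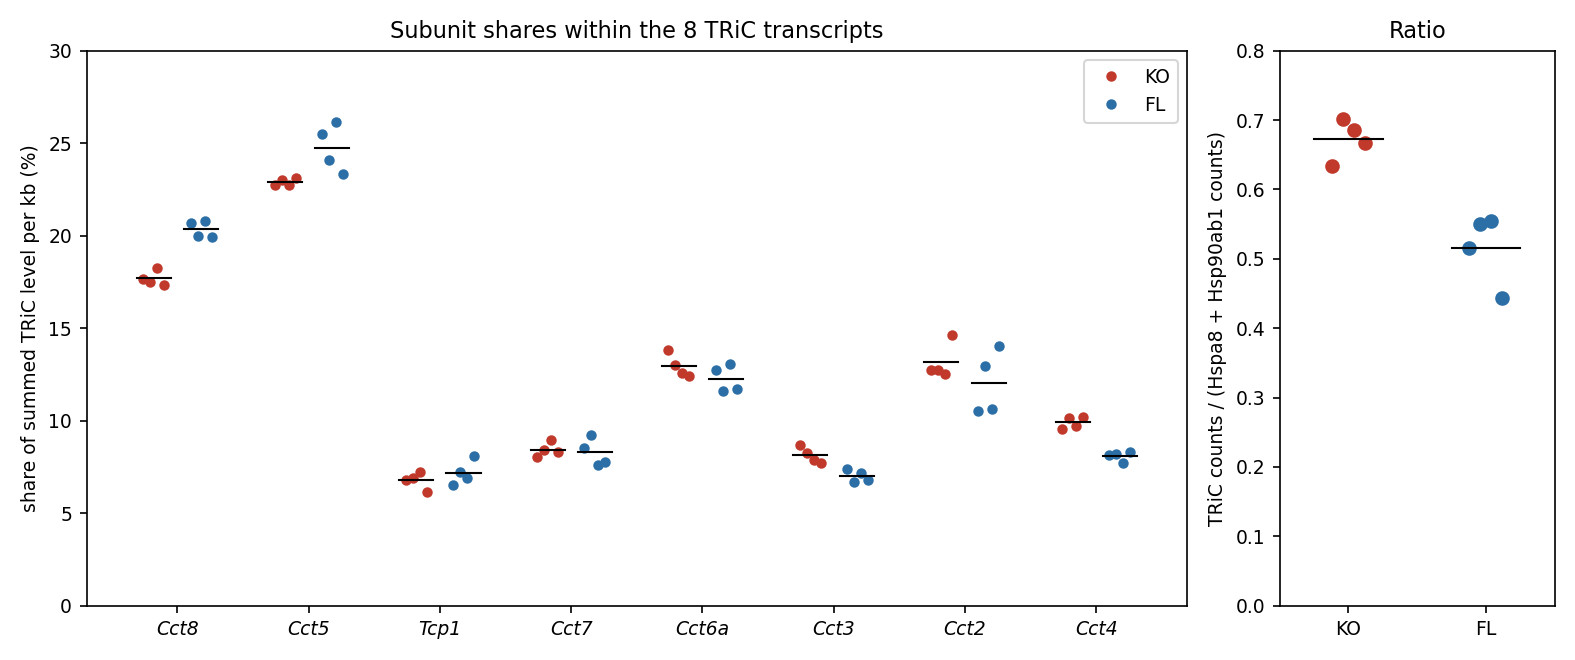
The left panel gives each subunit's share (%) of the summed TRiC level per exonic kilobase by library, KO red and FL blue, with the group mean as a bar, ordered by the difference; the right panel gives the ratio of TRiC counts to Hspa8 plus Hsp90ab1 counts. Cct8 and Cct5 have lower shares and Cct3 and Cct4 higher shares in all 4 KO libraries, and the ratio is 0.635 to 0.702 in KO against 0.444 to 0.555 in FL.

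Per exonic kilobase the order of levels was nearly the same in both groups. Hsp90ab1 led, with 576 ± 59.1 CPM per kilobase in KO and 1409 ± 262 in FL, followed by Hspa8 with 450.2 ± 61.8 in KO and 1063 ± 164 in FL. Cct5 came next, with 147 ± 10.98 in KO and 295 ± 35.0 in FL, then Cct8 with 113 ± 10.8 in KO and 242 ± 25.1 in FL. Cct2 and Cct6a did not differ beyond their spread in either group, at 84.1 ± 3.61 and 83.2 ± 10.48 CPM per kilobase in KO. The last places were held by Cct4, Cct7, Cct3 and Tcp1, at 63.5 ± 3.50, 54.0 ± 4.84, 52.3 ± 6.74 and 43.5 ± 5.81 CPM per kilobase in KO (all SD, n = 4), with Cct7 and Cct3 apart by less than their spread. These places depend on the length used: with the longest transcript that retains no intron, Cct3 moved to place 4 in KO and place 6 in FL, and Hspa8 passed Hsp90ab1, though their spreads overlapped.

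Several members overlap other genes, and no strand setting is given for the counting, so the reads of such pairs cannot be told apart. Tcp1 and Mrpl18, Cct6a and Psph, and Cct7 and Pradc1 start head to head with overlapping ends, and Cct8 and Usp16 overlap at their 3′ ends. Mrpl18, Psph and Pradc1 were at -0.37, -0.08 and -0.18 on the log2 scale, and none passed (edgeR adjusted p 0.057, 0.74 and 0.40). Usp16, a deubiquitinase gene, rose to 27.7 ± 0.942 CPM in KO, against 21.8 ± 1.36 CPM in FL (SD, n = 4 each; log2 fold change 0.34, SE 0.11, edgeR adjusted p = 0.033), while Cct8 fell. The Usp16 call was lost when any library except FL replicate 2 was left out. On total counts Psph was at 0.51 and passed as higher (edgeR adjusted p = 0.033). On that scale 51.7% of all genes passed as higher, and the median gene was at 0.64. Each partner was counted at under 100 CPM.

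The other chaperone systems, 105 tested genes in 7 lists, held 24 genes called lower and 3 called higher, with a median log2 fold change of -0.15, where 14.9% of all genes were called lower and 13% higher, with a median of 0.05. On total counts the lists held 7 lower and 48 higher at a median of 0.44, where 5.09% of all genes were called lower and 51.7% higher, with a median of 0.64. These shares of all genes are the background of each count that follows. Of 12 TRiC cofactors tested, 1 was called lower (8.33%), the prefoldin subunit gene Vbp1 (108 ± 5.51 CPM in KO and 151 ± 6.21 CPM in FL, log2 fold change -0.48, SE 0.09, adjusted p = 0.0035). The other 5 prefoldin subunits had log2 fold changes of -0.27 to 0.16. The cofactor list's median was -0.05, and the group means of these genes were 0.624 to 151 CPM, below the range of the chaperonin subunits. Of all genes of 10 to 100 CPM, 12.8% were called lower, and the cofactors were not tested against the chaperonin. Among the 6 tubulin folding cofactors 0 passed in edgeR, DESeq2 or limma-voom, with 1 at an unadjusted p under 0.05 in edgeR. On total counts 7 of the 12 TRiC cofactors and 3 of the 6 tubulin cofactors passed as higher, close to the 51.7% of all genes.

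Of 21 TRiC clients tested, 10 fell, among them 9 of the 11 actin and alpha and beta tubulin genes, a subset chosen after the values were seen (median -1.11, and -0.52 on total counts, where 6 passed). Actb, the main cytoplasmic actin, had 6078 ± 738 CPM in KO and 19137 ± 6812 CPM in FL (SD, n = 4 each; log2 fold change -1.65, SE 0.23, edgeR adjusted p = 5.4e-04). Actg1 was at -1.75, Tuba4a at -1.39 and Tuba1a at -1.11. Of the 10 other clients, which include the mitotic regulators Cdc20 and Plk1, Gnb1 alone was called, at -0.50 (SE 0.10, edgeR adjusted p = 0.0041). On total counts 0 of these 10 passed as lower and 5 as higher, with a median of 0.49 and Gnb1 at 0.09. The Gnb1 call was also lost without KO replicates 2 and 3 together. Abundance differed as well: FL means were 1799 CPM for Actg1 and 2016 CPM for Tuba4a, against 168 CPM for Cdc20 and 94.5 CPM for Plk1. Tuba1a was called at an FL mean of 57.5 CPM. Of all genes, 79.2% were called lower at 300 to 1000 CPM and 93.0% at 1000 to 4000 CPM. At 100 to 300 CPM it was 43.2%, and at 10 to 100 CPM 12.8%. The difference between actin and tubulin and the other clients was not tested, nor was the part of abundance in it.

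In the HSP70 system 5 of 29 tested genes fell (17.2%, near the background of 14.9%) and 2 rose, while on total counts 0 passed as lower and 19 as higher. The HSP110-type exchange factor Hspa4 fell by 0.59 on the log2 scale, the J-protein genes Dnaja2 and Dnajb6 by 0.54 and 0.36, the exchange factor Hspbp1 by 0.59, and the ubiquitin ligase gene Stub1 by 0.72. The Dnajb6 call was lost without KO replicate 2, and that of Stub1 without KO replicate 2 or 4 or FL replicate 1, 3 or 4. Dnaja1, the J protein most closely paired with HSC70, rose instead, with 191 ± 22.7 CPM in KO and 144 ± 15.5 CPM in FL (SD, n = 4 each; log2 fold change 0.41, SE 0.12, edgeR adjusted p = 0.028). That call was lost when KO replicate 1, 2 or 3 or FL replicate 2 or 3 was left out. The other that rose, Dnaja4, rests on 52 counts in KO and 6 in FL, and its call was lost without KO replicate 2 or 3 or FL replicate 1, 2 or 4. Hspa4, Dnaja2 and Dnajb6 were at 0.01, 0.05 and 0.23 on total counts. Without KO replicates 2 and 3 together, the calls of Hspa4 and Dnaja2 were lost as well.

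In the HSP90 system 4 of 19 fell: Hsp90aa1, the ATPase activator Ahsa1 (-0.55), the HSP70 to HSP90 adaptor Stip1 (-0.51) and the p23 gene Ptges3 (-0.49). On total counts 1 of the 19 passed as lower, Hsp90aa1 at -0.54, and 7 as higher, while Ahsa1, Stip1 and Ptges3 turned to 0.03, 0.08 and 0.12 and did not pass. The Stip1 and Ptges3 calls were also lost without KO replicates 2 and 3 together. Of 11 mitochondrial chaperones 4 fell: Hspd1, which encodes HSP60 and is the mitochondrial counterpart of TRiC, by 0.90 (276 ± 43.0 CPM in KO and 514 ± 46.8 CPM in FL, SE 0.13, adjusted p = 8.6e-04), Hspa9 by 0.75, Trap1 by 0.54 and Grpel1 by 0.43. The Grpel1 call was lost without KO replicate 2, 3 or 4 or FL replicate 2 or 3. On total counts 0 of the 11 passed as lower and 3 as higher, and Trap1 and Grpel1 turned to 0.05 and 0.15. Hspd1 averaged 395 CPM over the 8 libraries. At 300 to 1000 CPM the median gene was at -0.76 and 79.2% of genes were called lower. Ahsa1, Stip1, Ptges3 and Trap1 had group means within 100 to 300 CPM, where 43.2% of genes were called lower. The part of abundance in the HSP90 and mitochondrial calls was not tested. Of the 7 genes tested from the list of HSF1 and small heat shock proteins, 1 rose, Hspb11 (1.16 ± 0.350 CPM in KO and 0.241 ± 0.0958 CPM in FL), also known as IFT25, a part of intraflagellar transport. Hsf1, the heat shock transcription factor, had 65.9 ± 8.90 CPM in KO and 62.0 ± 11.8 CPM in FL, and a log2 fold change of 0.09 (SE 0.15, edgeR adjusted p = 0.70), and on total counts 0.66 (adjusted p = 0.012), near the 0.64 of the median gene.

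**Figure D5:**
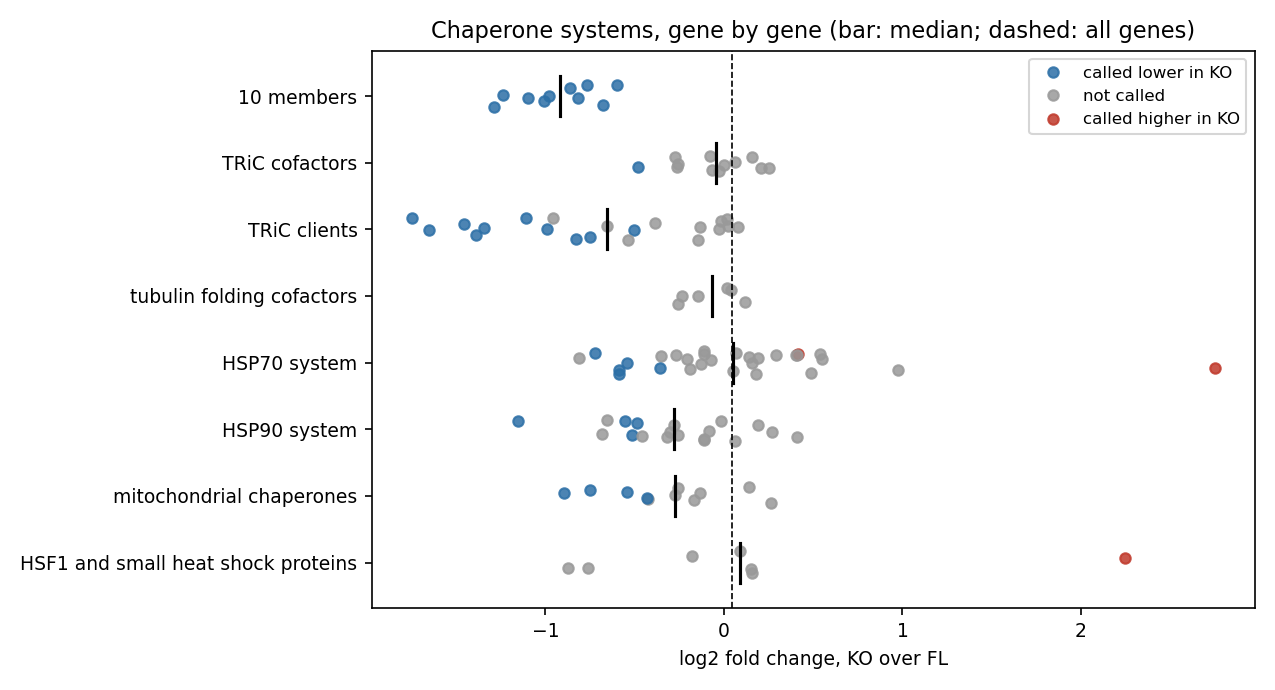
Each point is the log2 fold change (KO over FL, TMM scaling) of 1 gene, in rows for the 10 members and the 7 lists; blue points were called lower in KO, red points higher and grey points neither, black bars are medians and the dashed line is the median of all genes, 0.05. The members run from -0.60 to -1.29, with a median of -0.92. The TRiC cofactors (median -0.05) and tubulin folding cofactors sit around the dashed line.

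The genes whose profile over the 8 libraries lay closest to the mean of the 8 subunits were Eif3l, G3bp1, Gars, Eif4a3, Slc1a5 and Ddx39b, out of 9853 compared at a mean of 5 CPM or more. Likeness was the root mean square distance of centred log2 CPM over the 8 libraries, 0.036 for Eif3l and 0.074 for Ddx39b. Centring was over both groups together, so the distance includes the difference between KO and FL. The named genes had log2 fold changes of -0.75 to -0.89, against a median of -0.84 for the 8 subunits. Eif3l and G3bp1 were not called on total counts or with genes detected as a covariate. Single subunits lay at 0.077 (Cct6a) to 0.14 (Cct2) from their own mean, and Hspa8 and Hsp90ab1 at 0.22 and 0.24. Eif3l averaged 229.6 ± 16.1 CPM in KO and 412 ± 46.3 CPM in FL, and G3bp1 440.1 ± 46.4 CPM in KO and 815 ± 58.4 CPM in FL (SD, n = 4 each).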

How the data were processed

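RNA was extracted with a miRNeasy kit, amplified by the Geo-seq method and made into libraries with a TruePrep transposase kit, per the labels' protocols. The authors deposited a table of raw read counts by gene symbol, with 8 libraries as columns. Bowtie 0.12.9, HTSeq 0.13.5, DESeq2 and mm10 are named, without roles, per the submitters' processing notes, whereas the deposited sheet is named after featureCounts. The sources used here do not give annotation, strand setting or the handling of multiply mapped reads. Molecular identifiers are not mentioned, and PCR duplicates may be among the counts. Columns named WT were taken as FL, the only group without the knockout. All 55291 entries named a gene, and 96.4% matched GENCODE M21 (mm10) by symbol, which gave positions and merged exonic lengths.

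KO was compared with FL by edgeR 4.0.16 in R 4.3.3: TMM factors, filterByExpr, quasi-likelihood F test, no covariate, and Benjamini-Hochberg adjustment over all genes kept, at a threshold of 0.05. SE was derived from the fold change and F (absolute log2 fold change over root F). CPM is scaled by TMM unless total counts are named. The log2 CPM used for likeness had 0.5 added. DESeq2 1.42.0 and limma 3.58.1 were alternatives. The edgeR, DESeq2 and limma steps were tested on simulated data, in which DESeq2 made a larger share of false calls than edgeR or limma, so its calls are the weaker check. Libraries of a group differed beyond counting noise (chi-square per degree of freedom at least 21.2), so none was merged. The 10 members and the 7 lists were chosen with earlier results of these data known. Genes named beyond the members were Dek, close paralogs, up to 4 called genes per list by smallest p, list genes called against their list, the 6 nearest profiles, and overlapping genes. The tubulin and prefoldin subsets, Stub1, Gnb1, Cdc20, Plk1 and Hsf1 were named after their values were seen.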

Additional observations from a re-analysis of the deposited data

Results flagged for a closer look

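Of 86 groups of 4 libraries checked for 43 named genes, 5 held a library far from the other 3, and chance flags about 1 in 20. Hsp90ab1 had 1994 CPM in KO replicate 1, against 1625 to 1657 CPM in the other KO libraries. Hspbp1 had 28.9 CPM in KO replicate 4, against 44.5 to 45.9 CPM in the others. Stub1 had 37.9 CPM in FL replicate 2, against 70.4 to 73.1 CPM in the others. Hspd1 had 445 CPM in FL replicate 2, against 531 to 544 CPM in the others. Hspb11 had 0.0992 CPM in FL replicate 3, against 0.266 to 0.300 CPM in the others.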

How the results depend on the processing

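The 10 members were called lower with RLE factors, no count filter, a filter of 5 CPM in 4 libraries, DESeq2, limma-voom, the replicate block and any 1 library left out (10 to 10 calls). Total counts left 5, genes detected as a covariate 0, and leaving out KO replicates 2 and 3 left 9. Genes called overall numbered 4853, and 9898 on total counts, 3140 with the 5 CPM filter, 205 with the covariate and 2342 without KO replicates 2 and 3. Those lower were 2597, and 886, 98 and 1342 on total counts, with the covariate and without KO replicates 2 and 3. Those higher were 2256, and 9012 on total counts, 3647 with no filter, 1368 with the 5 CPM filter, 3854 by DESeq2, 107 with the covariate and 1000 without KO replicates 2 and 3. With 1 library left out, calls ran from 3397 to 5033 in all, 1938 to 2590 lower and 1459 to 2443 higher, the last lowest without KO replicate 2. The 7 lists' 24 lower calls became 7 on total counts and 1 with the covariate (21 to 26 with 1 library left out). Their 3 higher calls became 48, 0 (1 at an unadjusted p under 0.05) and 1 without KO replicates 2 and 3 (1 to 4 with 1 library left out). The Cct3 share difference was 1.12 percentage points, and 1.89 with the longest transcript as length. With 1 library left out, a check added after the data were seen, the differences were 0.943 to 1.26 for Cct3, 1.70 to 1.95 for Cct4, -2.32 to -1.39 for Cct5 and -2.85 to -2.51 for Cct8. On total counts the log2 fold changes of genes called lower turned to 0.0342 (Ahsa1), 0.0529 (Dnaja2), 0.23 (Dnajb6), 0.0906 (Gnb1), 0.15 (Grpel1), 0.0130 (Hspa4), 0.12 (Ptges3), 0.0763 (Stip1), 0.0478 (Trap1) and 0.11 (Vbp1), none of which passed, and Psph, not called with TMM, turned to 0.51 and passed. Beyond the scaling shift itself, the causes were not tested.

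Deviations of same-numbered libraries correlated at 0.019 to 0.047, so the numbers were not taken as pairs. With the replicate number as a block, 4339 genes were called, 2341 lower and 1998 higher, and 10 members were lower. Every member is among the more deeply counted genes, so the spread between libraries, not counting error, limits precision. Cct6b, Hspa1b, Dnaja4 and Hspb11 rest on few reads.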
